A study of Mus musculus with 6 samples.

Results

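S100 genes encode small calcium-binding proteins, and 10 of them are described here across CD8a-selected cells of a mouse melanoma: S100a1, S100a4, S100a6, S100a8, S100a9, S100a10, S100a11, S100a13, S100a16 and S100b. They were taken by name out of the 26754 genes in each expression table by a rule that reads no measured value, although earlier results of these data were known when the list was made. Cells came from subcutaneous tumours of B16, a pigmented melanoma line of C57BL/6 origin, grown in female C57BL/6J mice, bought at 6 to 8 weeks of age, and enriched on magnetic beads against CD8a. The groups were day 7 and day 14 after implantation, with 3 libraries each. Both groups carried the same tumour and received no other named treatment, so the tumour's age was the only labelled difference.

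S100 proteins are dimers of a small subunit with a pair of EF hands, the helix-loop-helix fold that holds calcium. Calcium opens a hydrophobic face on the dimer, which then docks on targets such as annexins, myosin or p53. Some members also leave the cell and act as danger signals on Toll-like receptors or the receptor RAGE. S100A8 and S100A9 fill the cytosol of neutrophils and monocytes, whereas S100B is a long-used marker of glia and melanoma.

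The libraries held 6523019 to 9313078 reads in genes on day 7 and 11385106 to 13316522 on day 14. Values are RPKM, reads per kilobase of gene and per 1000000 reads in genes, so levels of different genes can be compared. Counts of day 7 replicates 1 and 2 were separated by little more than sampling noise (median chi-square ratio per fragment 1.11, where 1 is sampling alone), against 40.9 between replicates 1 and 3. They were averaged and counted as 1 sample, giving n = 2 on day 7 and n = 3 on day 14. Between day 14 libraries this ratio was 4.05 to 4.43, above sampling alone but far below 40.9. These libraries were kept as 3 samples, and their spread may be smaller than that between mice. The labels do not say that libraries came from separate mice, so p-values measure only the spread between these samples. T cell markers were present in every library, but the summed RPKM of 16 of them was 609 to 683 on day 7 and 161 to 176 on day 14. The 12 melanocyte markers summed to 5903 to 6108 and 10790 to 11791 RPKM, so the libraries were not purely T cell RNA. Most of each sum was 1 gene, Dct, at 4431 to 4726 RPKM on day 7 and 8577 to 9681 on day 14. A lower value can reflect fewer cells of a type or less RNA per cell, which cannot be told apart in bulk RNA.

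Of the 10 genes, 6 averaged at least 20 counts per 1000000 reads (CPM) and entered the fit across genes, and 2 of these fell on day 14. S100a10 and S100a11 fell by nearly the same amount, and none of the 6 rose (3 had an unadjusted p under 0.05, and limma-voom called 3 lower and 0 higher). Among all 6691 genes tested, 3.18% were lower and 1.70% higher by the same rule (limma, Benjamini-Hochberg adjusted p under 0.05), so 34.9% of calls were higher, against 17.8% with median-of-ratios scaling and 99.8% when divided by 12 T cell genes. Of the same 6691 genes, 1302 had an unadjusted p under 0.05, and limma-voom called 1436 higher and 709 lower. These are the backgrounds for such counts in the lists below. The median log2 difference was -0.62 over the 6 S100 genes and 0.16 over all genes tested. By limma-voom these medians were -0.32 and 0.17. With a filter of an RPKM of 1 in 2 samples, which all 10 members passed, the medians were -0.10 and 0.28. Counted without a test, all 3 day 14 libraries lay below all 3 day 7 libraries for 4 of the 10 genes (S100a6, S100a10, S100a11 and S100a13). The background of such separation was 13.9% of 13602 genes with an RPKM of at least 1 in 2 samples. S100a9 and S100a16, 2 of 10, lay above in every day 14 library, against a background of 32.5%. The other 4 genes, S100a1, S100a4, S100a8 and S100b, overlapped between the days.

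**Figure D1:**
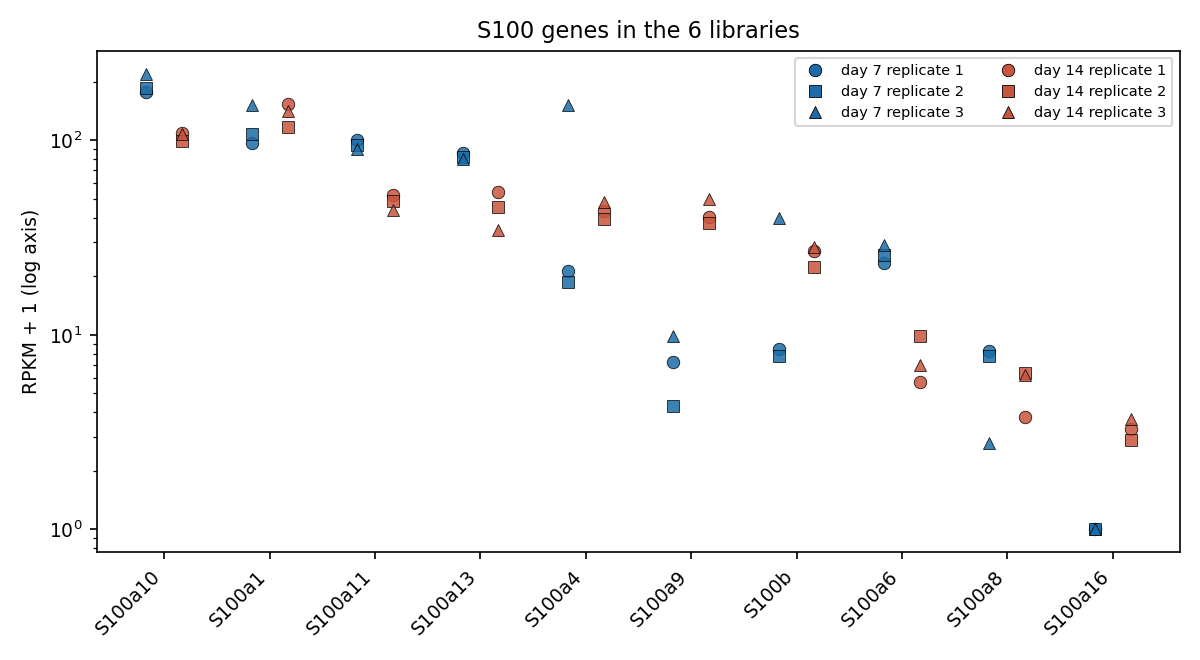
Each point is 1 library, with RPKM + 1 on a log axis, the 10 S100 genes ordered by level along the horizontal axis, circles, squares and triangles for replicates 1, 2 and 3, day 7 in blue and day 14 in red. S100a10, S100a11, S100a13 and S100a6 separate downward on day 14 and S100a9 and S100a16 upward, while S100a4 and S100b of day 7 replicate 3 stand far above the other day 7 libraries.

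All but S100b, which sits on chromosome 10, lie on chromosome 3 (GRCm38, gene ends equal to GENCODE M21 for all 10). In order along the chromosome they are S100a1, S100a13, S100a16, S100a4, S100a6, S100a8 and S100a9, then, after a long gap, S100a11 and S100a10. S100a11 (plus strand, 93520488 to 93526287) and S100a10 (plus strand, 93555080 to 93564643) are next to each other, 28792 bases apart. These 2 neighbours were the members that passed the test, both downward. Position did not sort the rest: S100a1 (minus strand, 90511034 to 90514392) and S100a13 (plus strand, 90514435 to 90524581) start 42 bases apart in opposite directions, and S100a13 separated between the days where S100a1 did not. S100a8 (plus strand, 90668978 to 90670035) and S100a9 (minus strand, 90692632 to 90695721) are also neighbours, and S100a9 separated where S100a8 did not.

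Start regions are shown for S100a11, one of the 2 genes that fell, for the neighbours S100a9 and S100a8, of which 1 separated between the days, and for S100a1, whose values overlapped. Each runs from 250 bases before to 50 after the start, 5′ to 3′ on the gene's own strand, from RefSeq on GRCm38.p6. The first is S100a11 at chr3:93520246-93520545, next come S100a9 at chr3:90695672-90695971 and S100a8 at chr3:90668821-90669120, and the last is S100a1 at chr3:90514281-90514580, whose window overlaps that of S100a13. Capitals mark matches, on either strand, to 5 motifs: the TATA box TATAAA, the GC box GGGCGG, the AP-1 site TGANTCA, a C/EBP-type site TTNNGNAA, and the E-box CATGTG bound by MITF-type factors. No matches overlap.
S100a11: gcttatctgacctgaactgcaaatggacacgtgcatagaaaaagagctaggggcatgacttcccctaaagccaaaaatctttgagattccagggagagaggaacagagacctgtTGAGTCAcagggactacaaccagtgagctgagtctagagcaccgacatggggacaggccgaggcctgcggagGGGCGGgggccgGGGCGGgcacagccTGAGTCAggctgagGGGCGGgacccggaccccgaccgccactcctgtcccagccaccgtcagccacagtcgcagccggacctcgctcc
S100a9: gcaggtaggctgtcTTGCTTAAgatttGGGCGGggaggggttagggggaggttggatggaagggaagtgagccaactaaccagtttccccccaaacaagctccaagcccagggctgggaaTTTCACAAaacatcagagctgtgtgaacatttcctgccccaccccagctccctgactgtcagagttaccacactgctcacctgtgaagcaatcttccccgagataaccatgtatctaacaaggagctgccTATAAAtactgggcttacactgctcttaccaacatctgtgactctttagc
S100a8: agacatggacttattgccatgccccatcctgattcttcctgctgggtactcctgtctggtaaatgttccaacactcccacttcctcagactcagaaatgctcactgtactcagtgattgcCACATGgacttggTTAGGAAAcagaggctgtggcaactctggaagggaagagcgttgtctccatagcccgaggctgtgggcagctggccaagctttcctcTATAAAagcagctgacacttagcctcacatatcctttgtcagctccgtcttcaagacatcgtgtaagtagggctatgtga
S100a1: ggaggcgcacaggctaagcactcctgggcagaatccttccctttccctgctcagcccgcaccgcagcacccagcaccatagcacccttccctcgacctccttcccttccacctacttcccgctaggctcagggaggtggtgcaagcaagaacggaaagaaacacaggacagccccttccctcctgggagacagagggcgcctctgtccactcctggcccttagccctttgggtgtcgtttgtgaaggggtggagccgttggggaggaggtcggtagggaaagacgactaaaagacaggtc

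Windows were found for 9 of the 10 genes. The window of S100a11 holds GC boxes and AP-1 matches and no TATA box. Both S100a8 and S100a9 hold a TATA box and a C/EBP-type match, S100a9 also holds a GC box, and S100a8 an E-box. The S100a1 window holds none of the 5 motifs. Among 32851 promoter windows of the same length, 13.6% hold the TATA box, 35.7% the GC box, 7.81% the AP-1 site, 40.7% the C/EBP-type site and 14.2% the E-box. These matches describe letters in a window and say nothing of factor binding in these cells.

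S100a10 encodes p11, which has lost calcium binding, stays in the open form and joins annexin A2 in a tetramer at the plasma membrane. Its RPKM was 176, 185 and 219 in day 7 replicates 1, 2 and 3, and 108, 98.4 and 107 in day 14 replicates 1, 2 and 3. Every day 14 library lay below every day 7 library. Its mean of 200.1 ± 27 RPKM (SD, n = 2) fell to 105 ± 5.4 on day 14 (SD, n = 3), with a log2 difference of -0.92 (SE 0.16, 95% interval -1.28 to -0.57, limma adjusted p = 0.00767). S100a10 was the most abundant of the 10 genes in each day 7 library, with 28.6% to 35.2% of their summed RPKM, and came behind S100a1 on day 14 with 22.4% to 23.5%. Without day 7 replicate 3 the log2 difference of S100a10 was -0.78 and its call ended (limma adjusted p = 0.117).

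S100a11 binds annexins A1 and A2 and takes part in the repair of torn plasma membrane. Its RPKM was 99.7, 94.1 and 88.8 on day 7, and 51.1, 47.8 and 42.6 on day 14. Here too the groups did not overlap, and the lowest day 7 library was well above the highest of day 14. S100a11 fell from 92.9 ± 5.7 to 47.2 ± 4.3 RPKM, with a log2 difference of -0.96 (SE 0.21, 95% interval -1.42 to -0.51, limma adjusted p = 0.0235). The call of S100a11 ended without day 7 replicate 3 (-1.03, limma adjusted p = 0.117) and, as an alternative chosen after seeing the data, with day 7 replicate 3 as the only day 7 sample (-0.90, limma adjusted p = 0.223). S100a10 kept its call with day 7 replicate 3 alone, at -1.06 (limma adjusted p = 0.0322).

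These 2 falls are shares of all reads. Divided by the summed RPKM of 12 T cell genes, the direction turned, to 1.03 for S100a10 and 0.98 for S100a11, both below the 1.94 to which the median of all genes moved. Against a background of 13.9%, 15 of 16 T cell markers lay lower in every day 14 library. So did 7 of 7 natural killer cell markers, whose sum went from 129 to 173 RPKM on day 7 to 16.4 to 19.5 on day 14. The part of these shifts in the S100a10 and S100a11 values was not tested.

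The annexins are the best known docking partners of this pair. Anxa2, the partner of p11, was at 122, 111 and 87.5 RPKM on day 7 and 85.3, 94.2 and 85.8 on day 14, with overlapping groups (log2 difference -0.19, 95% interval -0.62 to 0.24, limma adjusted p = 0.633). The ratio of S100a10 to Anxa2 RPKM was 1.45, 1.66 and 2.51 on day 7 and 1.27, 1.04 and 1.25 on day 14. All day 14 ratios were below all day 7 ratios. Anxa1, which S100A11 binds and which is a glucocorticoid-induced anti-inflammatory protein, was at 24.9, 22.0 and 40.9 RPKM on day 7 and 53.6, 58.5 and 59.3 on day 14. Its log2 difference of 0.86 did not pass the test (limma adjusted p = 0.117), although the groups did not overlap. The ratio of S100a11 to Anxa1 went from 4.00, 4.28 and 2.17 to 0.95, 0.82 and 0.72.

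Of 7 annexins tested, 1 fell and none rose, with 2 at an unadjusted p under 0.05 and 1 lower and 1 higher by limma-voom. Their median log2 difference was 0.056. Anxa6, an annexin of membrane and actin dynamics, fell from 103 ± 1.4 to 43.7 ± 0.35 RPKM (log2 difference -1.21, SE 0.17, limma adjusted p = 0.00217), a call that held without each library in turn. Per T cell gene it turned to 0.73. Anxa11 was at 12.1 ± 6.6 and 10.5 ± 0.96 RPKM (limma adjusted p = 0.921). Ahnak, the giant scaffold that p11 and annexin A2 bind, was at 23.1 ± 3.0 and 16.5 ± 0.51 RPKM (limma adjusted p = 0.399).

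**Figure D2:**
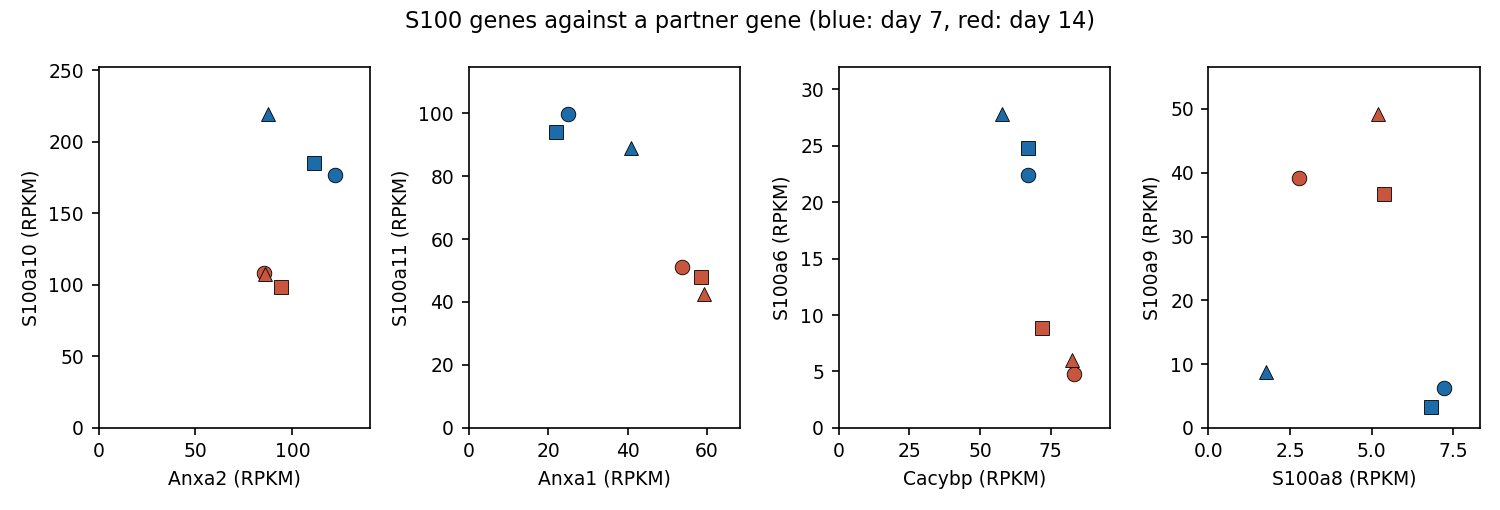
Each panel plots an S100 gene (vertical axis, RPKM) against a partner gene (horizontal axis, RPKM) in the 6 libraries, with circles, squares and triangles for replicates 1, 2 and 3, day 7 in blue and day 14 in red. S100a10 and S100a11 are lower on day 14 while Anxa2 overlaps and Anxa1 is higher, and S100a9 is higher without a matching shift of S100a8.

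S100a13 helps FGF1 and interleukin-1 alpha leave the cell without a signal peptide. It was at 85.3, 81.1 and 79.3 RPKM on day 7 and 53.2, 44.5 and 33.5 on day 14, so the groups did not overlap and the day 14 libraries were spread more widely. The log2 difference of -0.90 was close to that of S100a10, but its SE of 0.34 was larger and it did not pass (95% interval -1.65 to -0.15, limma adjusted p = 0.176). S100a13 passed in 4 of the 16 alternatives other than division by T cell genes, among them limma-voom on the recovered reads (-0.95, limma adjusted p = 0.0206). The others were no weights and 6 libraries counted singly, without and with a replicate block. Counting singly treats day 7 replicates 1 and 2 as separate samples, although they were nearly alike.

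S100a1, best known as a regulator of calcium handling in heart and muscle, was the most abundant of the 10 genes in each day 14 library. It stood at 95.8, 107 and 151 RPKM on day 7 and 153, 116 and 140 on day 14. Day 7 replicate 3 reached the day 14 range and the other day 7 libraries were below it. The log2 difference was 0.13 (95% interval -0.44 to 0.71, limma adjusted p = 0.830). The ratio of S100a1 to S100a13, its head-to-head neighbour, was 1.12, 1.32 and 1.90 on day 7 and 2.88, 2.60 and 4.19 on day 14.

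S100b was low in day 7 replicates 1 and 2, at 7.44 and 6.80 RPKM, and high in replicate 3 at 39.0. On day 14 it was at 26.0, 21.2 and 27.3 RPKM, inside the day 7 range. The log2 difference of 0.51 had a 95% interval of -0.61 to 1.63 (limma adjusted p = 0.623), and the size rested on day 7 replicate 3. It was 1.66 without that library (limma adjusted p = 0.253) and -0.64 with it as the only day 7 sample (limma adjusted p = 0.591), and limma-voom on the recovered reads gave 1.37 (limma adjusted p = 0.0507). Replicate 3 held 5.48 times the S100b level of replicates 1 and 2. On the log2(RPKM + 1) scale, 1.48% of all genes tested had an upward gap as large in replicate 3, with downward gaps not counted. The 12 melanocyte markers summed to 5940, 6108 and 5903 RPKM in day 7 replicates 1, 2 and 3, without a gap like that of S100b. Most of each sum was 1 gene, Dct, at 4521, 4726 and 4431 RPKM, so the sum says little of the other markers. Single markers went both ways in replicate 3. The pigment cell antigen gene Mlana was highest there, at 72.7, 62.6 and 156 RPKM in replicates 1, 2 and 3, and so was Gpnmb. Tyrp1 was lowest there, at 548, 543 and 463 RPKM, and so was Dct. Of 11 melanocyte markers tested, 4 rose on day 14 (Dct, Mlana, Tyrp1 and Gpnmb) and none fell, with 7 at an unadjusted p under 0.05 and 6 higher and 0 lower by limma-voom. The part of tumour cell RNA in the S100b values was not tested. S100b lies on the plus strand of chromosome 10, 76253853 to 76261159.

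S100a4, a binding partner of non-muscle myosin IIA tied to cell migration, showed the widest spread between day 7 libraries. It stood at 20.2 and 17.7 RPKM in replicates 1 and 2 and at 151 in replicate 3, against 42.6, 38.6 and 47.4 on day 14. The day 14 values lay between the day 7 values, and the log2 difference of -0.33 had a 95% interval of -1.49 to 0.83 (limma adjusted p = 0.780). S100a4 in day 7 replicate 3 was at 7.99 times its level in replicates 1 and 2. On the log2(RPKM + 1) scale, 0.523% of the genes tested had an upward gap as large in replicate 3, with downward gaps not counted. With replicate 3 left out the log2 difference was 1.13 (limma adjusted p = 0.294), and with it alone -1.80 (limma adjusted p = 0.00671), so the direction rested on 1 library. S100a4 (plus strand, 90603771 to 90606045) shares 302 exon bases with the gene model Gm42674 on the same strand, and both had the same number of reads in each library, so its value is uncertain. Myh9, its myosin target, was at 282 ± 11 and 220.0 ± 5.5 RPKM (limma adjusted p = 0.168).

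S100a6 encodes calcyclin, which binds CacyBP, a link to ubiquitin ligases, and marks proliferating and migrating cells. Its RPKM was 22.4, 24.8 and 27.8 on day 7 and 4.75, 8.85 and 6.04 on day 14, from 244, 316 and 248 reads and then 74, 152 and 110 reads. Every day 7 value was above every day 14 value, and mean levels were 25.7 ± 3.0 and 6.55 ± 2.1 RPKM. At 19.4 CPM on average S100a6 missed the minimum of 20 CPM and did not enter the fit across genes. With filters of an RPKM of 1 in 2 samples and of any read, its limma adjusted p was 0.0273 and 0.0363. With a minimum of 10 CPM, an alternative chosen after seeing the data, the log2 difference was -1.85 (95% interval -2.82 to -0.89, limma adjusted p = 0.0429). In that fit 2.56% of 8958 genes were lower and 1.65% higher. On simulated reads more of its calls were false than with 20 CPM. Changes were simulated only in genes of at least 20 CPM, so this cannot judge calls of genes below it. No call is taken from the 10 CPM fit, chosen after seeing the data, or from the wider filters. Its partner Cacybp was at 66.9, 67.0 and 57.6 RPKM on day 7 and 83.4, 71.9 and 82.5 on day 14 without overlap, but its log2 difference of 0.34 did not pass (limma adjusted p = 0.451). S100a6 lies on the plus strand, 90612882 to 90624181.

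**Figure D3:**
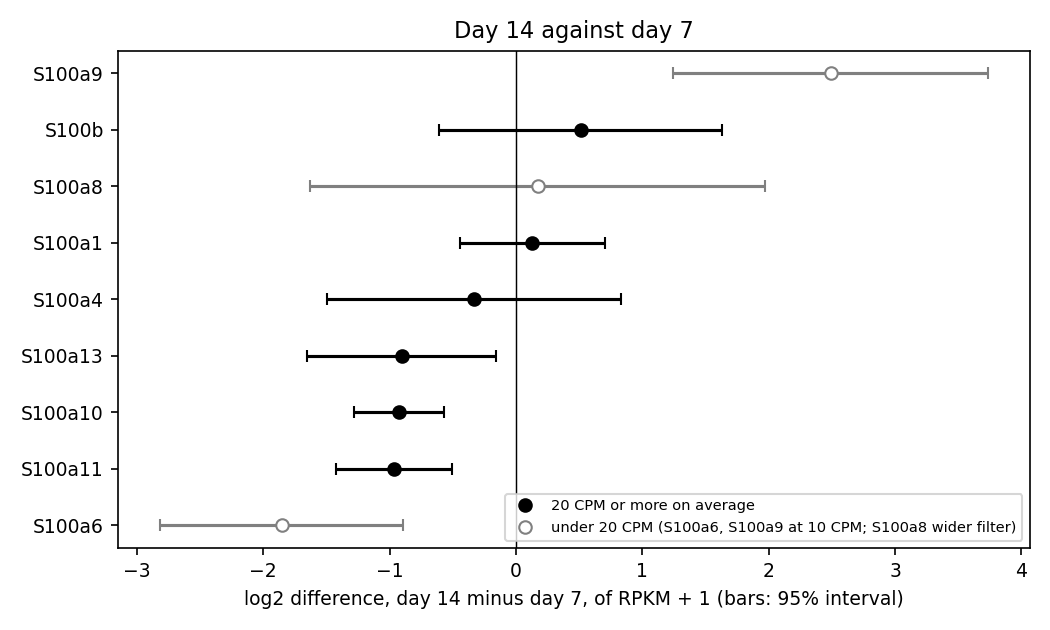
Points are log2 differences of RPKM + 1, day 14 minus day 7, with 95% intervals, for 9 of the 10 genes (S100a16, listed at 0 on day 7, is not drawn). S100a10 (-0.92), S100a11 (-0.96) and S100a13 (-0.90) lie close together, all 3 turning positive when divided by 12 T cell genes, and the open points of S100a6, S100a8 and S100a9 come from fits with a lower minimum.

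S100a9 and S100a8 form calprotectin, an antimicrobial metal-binding heterodimer of neutrophils and monocytes. S100a9 was at 6.25, 3.29 and 8.81 RPKM on day 7, from 26, 16 and 30 reads, and at 39.2, 36.6 and 49.2 RPKM on day 14, from 233, 240 and 342 reads. The groups were far apart, with means of 6.79 ± 2.9 and 41.7 ± 6.7 RPKM. S100a9 averaged 14.5 CPM and did not enter the fit across genes. With a minimum of 10 CPM, chosen after seeing the data, its log2 difference was 2.49 (95% interval 1.25 to 3.74, limma adjusted p = 0.0372). It did not pass with filters of an RPKM of 1 in 2 samples and of any read (limma adjusted p = 0.0623 and 0.0764). S100a9 was at 1.72 to 4.60 CPM on day 7 and 19.1 to 25.7 on day 14, so it reached a mean of 10 CPM only through day 14. Again no call is taken from these fits.

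S100a8 did not move with its partner. It was at 7.23, 6.81 and 1.77 RPKM on day 7 and 2.78, 5.39 and 5.19 on day 14, with 8 to 48 reads per library and overlapping groups. The ratio of S100a9 to S100a8 was 0.864, 0.483 and 4.99 on day 7 and 14.1, 6.79 and 9.47 on day 14. S100a8 averaged 3.08 CPM and was tested only with the widest filters, where the 95% interval of its log2 difference ran from -1.63 to 1.97.

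Neutrophil markers were scarce in every library. The 16 listed summed to 7.43 to 9.14 RPKM on day 7 and 21.3 to 26.4 on day 14. Of these, 8 were higher in every day 14 library and none lower, against backgrounds of 32.5% and 13.9%. On day 7, 11 of the 16 were at 0 in every library. The granule genes Camp, Ngp, Elane and Mpo were at 0 throughout, and Ly6g was at 0 in 5 libraries and at 0.186 RPKM in day 14 replicate 1. Macrophage and monocyte markers summed to 973 to 1105 RPKM on day 7 and 1728 to 1785 on day 14. Of 20, 13 separated upward and 5 downward, against the same backgrounds of 32.5% and 13.9%. Of 17 tested, 7 rose, among them Arg1, an arginase, Lyz2, a lysozyme, F13a1, a clotting factor subunit, and Mrc1, the mannose receptor. None fell, with 13 at an unadjusted p under 0.05 and 11 higher and 0 lower by limma-voom. The part of these cells in the S100a9 value was not tested.

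Of 17 receptors and binding partners of S100A8 and S100A9, 11 were tested and none was called by limma, with 6 at an unadjusted p under 0.05 and 4 higher and 3 lower by limma-voom. Their median log2 difference was 0.43. Without a test, 8 of the 17 lay higher in every day 14 library and 4 lay lower, against backgrounds of 32.5% and 13.9%. Among the 8 were Cd14 and Ly96, which were below the minimum for the test and near 0 on day 7. Cd14 was at 0.23 ± 0.32 and 14.8 ± 1.8 RPKM, and Ly96 at 0.11 ± 0.16 and 3.97 ± 1.2 RPKM. Bsg, the receptor EMMPRIN, was at 414 ± 6.9 and 558 ± 20 RPKM (log2 difference 0.43, limma adjusted p = 0.0616). Cd36, a fatty acid receptor that takes up lipid carried by calprotectin, was at 5.66, 4.73 and 2.31 RPKM on day 7 and 14.6, 12.7 and 15.1 on day 14, without overlap (limma adjusted p = 0.0860). Tlr4 was at 1.45 ± 0.34 and 2.72 ± 0.35 RPKM, and Ager, which encodes RAGE, was listed at 0 on day 7 and at 1.31, 0.45 and 0.42 RPKM on day 14. Both were below the minimum for the test.

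S100a16, a broadly expressed member with weak calcium binding (plus strand, 90537254 to 90543151), was listed at 0 in the 3 day 7 libraries. It had 42, 38 and 58 reads on day 14, or 2.28, 1.87 and 2.69 RPKM. No fold is given against values of 0. Genes with at least 1 read numbered 13133 to 13806 per day 7 library and 18318 to 19053 per day 14 library, and the part of this difference in the S100a16 values was not tested. Other S100 genes were nearly silent. S100a5 had no read, S100a14 was at 0.092 RPKM in day 14 replicate 2 only, and S100a7a was at 0.223 RPKM in day 7 replicate 3 and 0.383 in day 14 replicate 1. The fused-type gene Tchh stayed at or below 1.26 RPKM, and S100pbp, which encodes an S100P-binding protein, was at 0.319 to 1.23 RPKM on day 7 and 1.54 to 2.19 on day 14.

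Intracellular partners and other calcium sensors had medians near 0. Of 18 tested intracellular partners and targets, 1 fell and none rose, with 7 at an unadjusted p under 0.05, 5 higher and 7 lower by limma-voom, and a median of -0.11. This was Lsp1, an actin-binding leukocyte protein, at 96.4 ± 10.0 and 56.1 ± 3.0 RPKM (log2 difference -0.77, limma adjusted p = 0.0417). Lsp1 lost its call at a similar size when day 7 replicate 3 was left out (-0.87, limma adjusted p = 0.125) and without each day 14 library (-0.79 to -0.72, limma adjusted p = 0.0529 to 0.0654), in fits with fewer samples. The list of other calcium sensors is mostly of EF-hand genes but also holds genes without an EF hand, such as Grn and Calr. Of its 27 tested genes, 2 rose and 2 fell, with 9 at an unadjusted p under 0.05, 2 higher and 9 lower by limma-voom, and a median of -0.021. Without a test, 11 of the 30 genes on that list lay lower in every day 14 library and 4 lay higher, against backgrounds of 13.9% and 32.5%. Calm2, a calmodulin gene, rose from 734 ± 22 to 1046 ± 76 RPKM and Calu, calumenin of the secretory pathway, from 224 ± 19 to 392 ± 9.7. Myl6, a myosin light chain, fell from 1407 ± 103 to 961 ± 17 RPKM and Aif1, a macrophage actin-bundling protein, from 95.4 ± 30.4 to 40.6 ± 4.5. Without day 7 replicate 3, which leaves 1 sample on day 7, the calls of Calm2, Calu and Aif1 ended (limma adjusted p = 0.0808, 0.104 and 0.263) and that of Myl6 held. Their log2 differences were then 0.48 for Calm2, 0.72 for Calu and -0.85 for Aif1, against 0.51, 0.81 and -1.18 with all samples. Per T cell gene, Lsp1, Myl6 and Aif1 turned upward (1.17, 1.42 and 0.76).

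**Figure D4:**
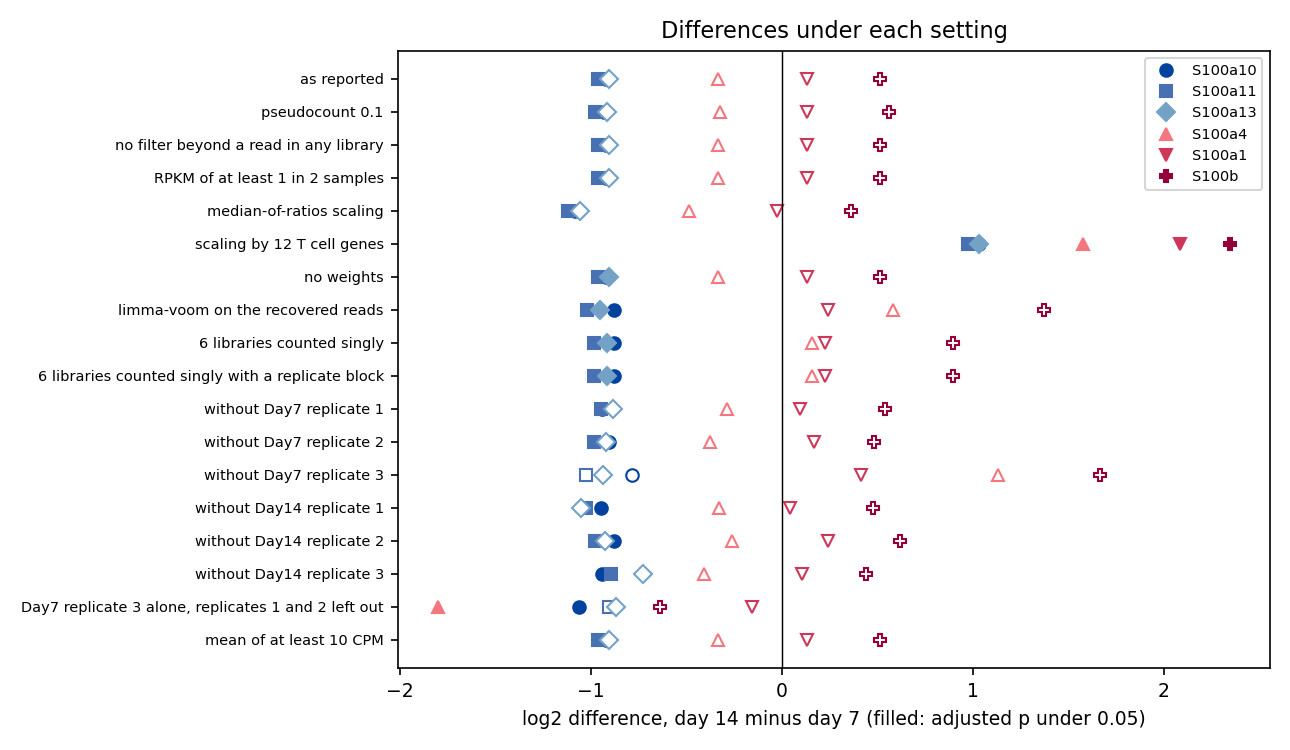
Each row is a setting and each symbol the log2 difference, day 14 minus day 7, of 1 of the 6 tested S100 genes, filled where the limma adjusted p was under 0.05. S100a10, S100a11 and S100a13 stay between -1.12 and -0.73 except when divided by 12 T cell genes, while S100a4 and S100b move with day 7 replicate 3.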

How the data were processed

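RNA from CD8a-bead-selected cells of B16 tumours was sequenced as stranded poly-A libraries with molecular identifiers and paired reads, per the labels' protocols. The submitters' processing notes name Trimmomatic 0.36, featureCounts, Subread 1.5.1 and GRCm38. No source used here gives the aligner or the strand setting. The authors deposited RPKM per gene, with gene coordinates and length per the file headers. Multiplying RPKM by length gave whole reads in every gene (tolerance 0.001), which were used for filters, CPM and limma-voom only. Of genes with 1 to 100 reads, 84.9% to 86.2% had an even count on day 7 and 73.7% to 75.9% on day 14. Read numbers can thus count both mates of a pair and exceed the fragments behind them.

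limma 3.58.1 in R 4.3.3 was fitted to log2(RPKM + 1) of genes averaging 20 CPM or more over 5 samples, so differences are on that scale and understate those of low genes. Precision weights were the inverse of each day's variance, smoothed against the mean by loess with a span of 0.3 and a floor of 0.005. These weights were rebuilt from a description of an earlier fit to these files, which called more genes, so each call and share of genes called depends on their form. A gene was called at a Benjamini-Hochberg adjusted p under 0.05, two-sided. The script was tested on simulated reads, where the RPKM filter gave mostly false calls. Changes were simulated only in genes of at least 20 CPM, so any call of a gene below it counted as false. The members and lists were chosen with earlier results of these data known. Named genes are the 10 members, other S100 genes with a read, direct partners, and up to 4 called genes per list. Cd14 and Ly96 were added after seeing the data. Lists cover annexins, intracellular partners, receptors, other calcium sensors and cell type markers. Alternatives were other pseudocounts, filters, scalings, weights, a replicate block and leaving out libraries. Replicate numbers did not pair the samples, since deviations of same-numbered libraries correlated at -0.014, -0.015 and -0.034.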

Additional observations from a re-analysis of the deposited data

How the results depend on the processing

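The 2 lower S100 members kept their direction in each alternative except division by 12 T cell genes (summed RPKM 550 to 652 on day 7 and 144 to 162 on day 14). That scaling gave 6 members higher and 0 lower, and 6355 genes higher and 13 lower, with S100a4 at 1.58, S100a10 at 1.03, S100a11 at 0.98 and S100a13 at 1.03. Over all genes the calls were 114 higher and 213 lower, and 1302 genes had an unadjusted p under 0.05. Leaving out 1 library gave 31 to 114 higher, 93 to 218 lower, 0 members higher and 0 to 3 lower (S100a6 is the added member, and reaches 20 CPM only when a day 14 library, where it is low, is removed), the fewest of each without day 7 replicate 3, where the lone day 7 sample kept the day 7 variance trend of all libraries. Day 7 replicate 3 alone gave 21 and 96. Without day 14 replicate 1, 61 were higher. Median-of-ratios scaling gave 63 higher and 291 lower, 17.8% of calls higher against 34.9%, moved the median of all genes from 0.16 to 0.012 and turned S100a1 to -0.027. No weights gave 601 and 410, limma-voom 1436 and 709, and 6 libraries counted singly 967 and 627. With a replicate block these were 645 and 518, with 3 members lower and 0 higher, but nothing shows that the numbers pair the samples. The balance turned upward in these 4 settings. Filters of an RPKM of 1 in 2 samples and of any read gave 1156 and 1181 higher and 325 and 284 lower. Each gave 1 member higher (S100a16) and 3 lower (S100a6, S100a10 and S100a11). S100a16, listed at 0 on day 7, passed both filters only through its day 14 reads, so it could only come out higher. With 10 CPM, 1 member was higher (S100a9) and the same 3 were lower. S100a9 reached that mean only through day 14, and no call is taken from these fits. S100a1 was -0.15 with day 7 replicate 3 alone and S100b -0.64. S100a4 turned to 0.58 by limma-voom, 0.16 with 6 libraries singly and 0.16 with the block, and ranged from -0.41 to 1.13 when 1 library was left out. S100a9, S100a8 and S100a16 rest on few reads, so smaller differences between days could not be seen.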
